A study of Mus musculus with 17 samples.

Results

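Changes in transcript level shared by all doxorubicin-injected tumours of day 7, whether or not they had shrunk, were described against the PBS-injected tumours of the same day. The comparison took the 6 arrays whose titles name doxorubicin (DX) and day 7, 3 of them labelled responder and 3 non-responder, and the 3 arrays titled day 7 PBS, which make 9 of the 17 arrays of the study. Tumours were MCA205, a transplantable mouse fibrosarcoma line, grown in mice with C57bl/6 as the genetic background and labelled WT, and were injected once they covered 25 to 45 mm2. DX or PBS went into the tumour itself, whole tumours were taken 2, 7 or 10 days later, and the DX tumours of day 7 were sorted into outcomes by whether they shrank. All groups shared the line, the host background, the WT genotype and the route, so the groups of day 7 differed by agent and, within DX, by outcome. A transplanted tumour of 1 line, taken whole, mixes tumour cells with host cells. The dose, and whether each array came from a separate mouse, are not given in the sources used here, so p-values below measure only the spread between these samples.

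Doxorubicin is an anthracycline that intercalates into DNA, poisons topoisomerase II and causes double-strand breaks. Damaged cells can halt their cycle through p53, die, or persist and secrete inflammatory proteins, and dying tumour cells can draw in myeloid cells and T cells. Cells make cholesterol from acetyl-CoA along the mevalonate pathway, whose enzymes are transcribed together under the factor SREBP2 when sterols are scarce.

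Each array gave 1 signal per probe, which was background-corrected, quantile-normalised and put on the log2 scale, so that a difference of 1 is a doubling. A probe counted as detected on an array when the deposited detection p-value was under 0.01. Probes detected on at least 2 of the 17 arrays were kept, and each gene was read from its brightest kept probe, which left 12451 genes, of which 10035 had a symbol and 2416 were probes without one. Differences were fitted with limma over all 17 arrays, and a gene was called changed at a Benjamini-Hochberg adjusted p under 0.05. On the day 7 arrays 13728 to 15044 probes were detected, and replicate arrays of 1 group correlated at 0.970 to 0.987. The fibroblast-type genes Col1a1, Col1a2, Fn1 and Sparc were detected on all 9 arrays. Some arrays stood apart. Responder 3 carried the most skeletal muscle transcripts, with a summed signal of 80489 over 25 muscle genes against 1718 to 1858 in PBS. Responders 1 and 2 were also above PBS, at 3930 and 2476, and non-responders were at 1723 to 1905. Non-responder 2 and responder 3 carried the most skin keratin transcripts, with Krt14 at 12.11 and 12.92 against 4.63 to 5.58 in PBS. Krt14 was also above PBS in responder 2, at 9.08, and in responder 1, at 6.48. PBS 2 and PBS 3 were the dimmest arrays, with 75th percentiles of raw signal of 133.3 and 138.5 against 151.6 to 172.9 in DX. The arrays lay on 3 BeadChips, with PBS arrays on chips 2 and 3, and 3 of the 6 DX arrays on chip 1, where there was no day 7 PBS array.

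Few genes passed the test, and most of those that did were higher after DX. Of 12451 genes, 37 were called (0.297%), 30 higher (0.241%) and 7 lower (0.0562%), and 1761 (14.1%) had an unadjusted p under 0.05. With the 75th percentile of each array in place of quantiles as the scale, 13 were higher and 8 lower, and the median of all genes moved from 0.02 to -0.08. Of the 37 called genes, 17 had a symbol, 13 of them higher and 4 lower. All DX arrays were above all PBS arrays for 29 of the 37 and below for 7, against 3.9% and 2.39% of all genes, though calls and non-overlap come from the same arrays. Read from the brightest probe, all 4 called genes with a symbol that fell encode enzymes of sterol synthesis. In bulk tumours, fewer cells of a type and less RNA per cell cannot be told apart, and this touches every difference below.

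The number of calls depended on single arrays. Without PBS 2 none of 12451 genes passed limma's test (1420 at an unadjusted p under 0.05, smallest adjusted p 0.0699), without PBS 1 there were 8 calls, and without PBS 3 there were 52. Leaving out 1 DX array gave 18 (non-responder 2), 20 (responder 2), 21 (responder 3), 36 (responder 1), 67 (non-responder 3) or 105 calls (non-responder 1). Without both dim PBS arrays there were again 0 calls (953 unadjusted). With BeadChip as a block 6 genes were called, all higher, Sntb2 and Tmem164 among them. Sizes depended on the background step: without it 20 genes were called, and Nsdhl was at -0.59, Prl2c2 at 0.79, Tmem164 at 0.57 and Hao1 at 0.32 on the log2 scale, each over 1.5 times smaller than the values below. Within-chip values below compare non-responders 1 and 3 with PBS 2 and 3 (chip 2) and responder 1 with PBS 1 (chip 3).

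**Figure D1:**
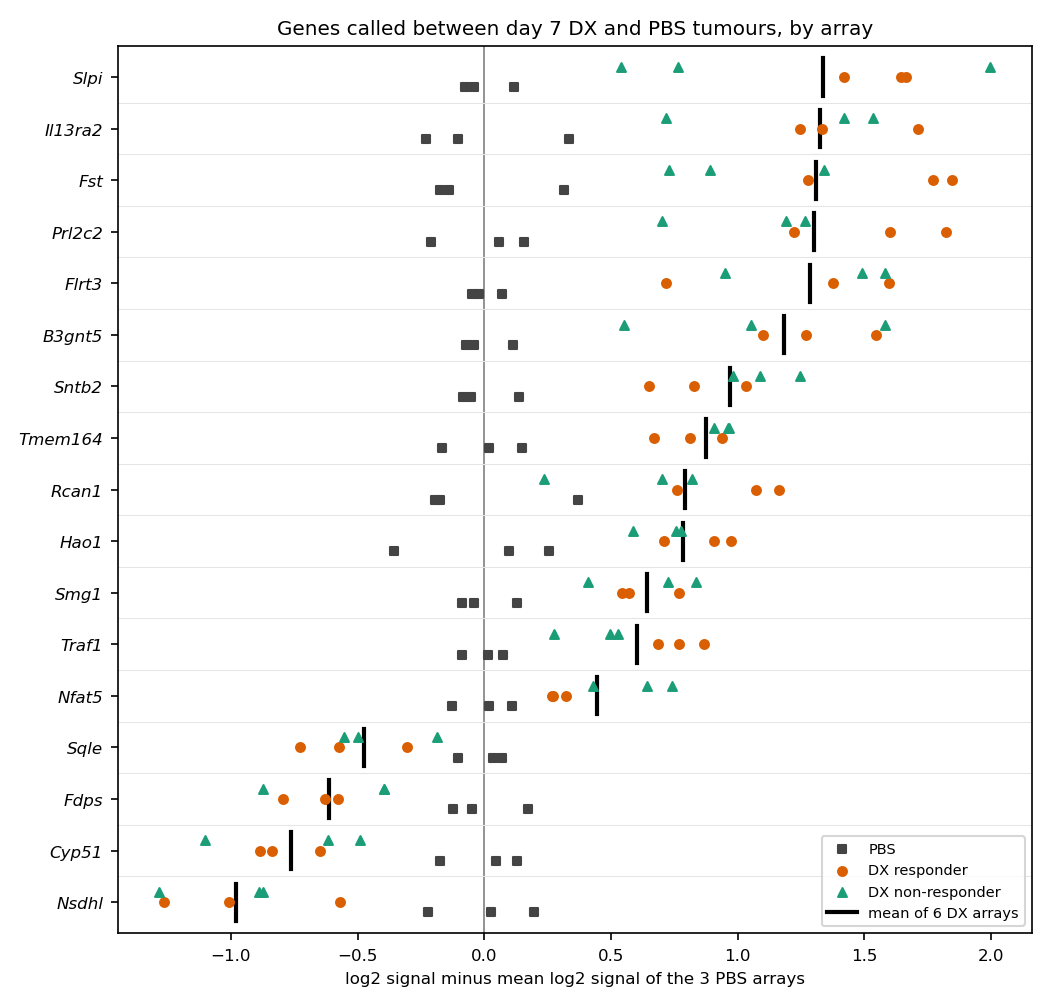
Each row is 1 of the 17 called genes with a symbol and each point 1 day 7 array, on the x axis as log2 signal minus the mean of the 3 PBS arrays (squares), with responders as circles, non-responders as triangles and the mean of the 6 DX arrays as a black line. All DX points lie to 1 side of the PBS points for 16 genes, and for Rcan1 non-responder 3 lies below the highest PBS array.

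With 1 probe a gene, all called falls with a symbol were sterol synthesis enzymes. Falls at dimmer probes of other genes, and larger falls at probes without a symbol, are given further on. Nsdhl encodes a dehydrogenase that removes methyl groups from sterol intermediates. Its log2 signal was 7.78, 7.95 and 7.53 in the PBS arrays, 6.75, 6.49 and 7.18 in the responders and 6.86, 6.47 and 6.88 in the non-responders. Every DX array was below every PBS array, and the values of both outcomes overlapped. The difference was -0.98 ± 0.17 (SE, 6 against 3 arrays, limma adjusted p = 0.0134). Its 3 other kept probes gave -0.94, -0.83 and -0.61.

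Cyp51 encodes the lanosterol demethylase, the step that azole drugs block in fungi. It read 10.62, 10.85 and 10.93 in PBS, 9.91, 10.15 and 9.96 in responders, and 10.31, 9.70 and 10.19 in non-responders. No DX array overlapped PBS, responders lay within the range of non-responders, and non-responder 1 was the DX array nearest to PBS. For Cyp51 the difference was -0.76 ± 0.14 on the log2 scale (limma adjusted p = 0.0188). Fdps makes farnesyl diphosphate, the branch point towards squalene and prenyl groups. It ran from 12.51 to 12.80 in PBS, and its lowest, median and highest DX values were 11.76, 12.03 and 12.24, again without overlap. The difference was -0.61 ± 0.12 (limma adjusted p = 0.0293), and the second Fdps probe gave -0.39.

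Sqle, squalene epoxidase, catalyses the first oxygen-requiring and a rate-controlling step of the pathway. Its signal was 11.98 to 12.15 in PBS and 11.36 to 11.90 in DX, with a DX median of 11.56. Non-responder 1 came closest to PBS, and no array crossed. The difference was -0.47 ± 0.10 (limma adjusted p = 0.0422). A second Sqle probe, dimmer than the first, gave -1.20 with an adjusted p of 0.0573 over all probes, so the size of the Sqle fall depended on the probe.

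The remaining sterol genes, apart from Mvk, leaned the same way without passing the test. The list values in this paragraph include the 4 called genes, so they do not describe the remaining genes alone. The list of 25 genes, whose choice was not independent of earlier results on these arrays, had 16 measured members, of which 4 were called lower, 0 higher, and 15 had a negative difference. The median difference was -0.46 on the log2 scale, against 0.02 over all tested genes. All DX arrays lay below the 3 PBS arrays for 6 of the 16, against a background of 2.39% of all genes. Besides the called genes these were Msmo1 (-0.64, adjusted p = 0.101), the methylsterol oxidase that acts just before Nsdhl, and Pmvk (-0.67, adjusted p = 0.170), phosphomevalonate kinase. Mvd, which makes isopentenyl diphosphate, was at -0.54 (adjusted p = 0.0901). The regulators Srebf2, which encodes SREBP2 itself, and Insig1, which holds SREBP in the endoplasmic reticulum, were at -0.39 and -0.44 (adjusted p = 0.253 and 0.392). Mvk, mevalonate kinase, was the member without a negative value, at 0.01. The median was -0.50 in responders and -0.42 in non-responders against the same PBS arrays, -0.27 within chip 2 and -0.51 within chip 3, and -0.29 for all DX arrays without background correction. The summed signal of the 16 genes was 20199 to 21331 in PBS, 13189 to 14183 in responders and 12801 to 17055 in non-responders, so no DX array reached the lowest PBS array. That sum is weighted to the brightest members, among them the called Fdps and Sqle, with PBS means of 12.63 and 12.09. Skin transcripts were highest in responder 3 and non-responder 2, and muscle transcripts in responder 3. Without those arrays the median was -0.34, with Nsdhl still called and Cyp51, Fdps and Sqle not. Responders 1 and 2, with smaller muscle signals, stayed in, and so did the Krt14 signal of responder 2. The part of those tissues in the result was not tested beyond this.

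**Figure D2:**
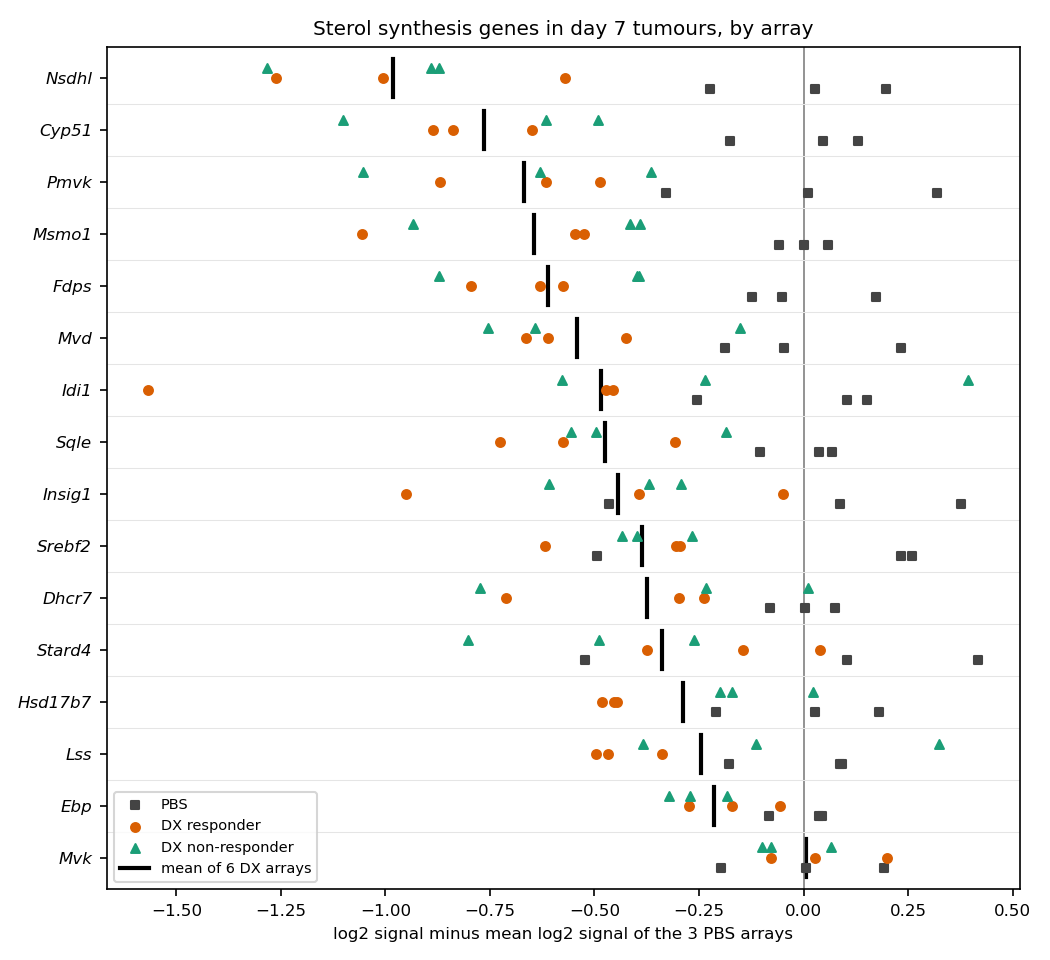
Rows are the 16 measured sterol synthesis genes, ordered by difference, and points are the day 7 arrays, as log2 signal minus the PBS mean, with the symbols of the plot of called genes. The black DX means lie left of 0 for 15 genes, between -0.98 for Nsdhl and -0.21 for Ebp, and at 0.01 for Mvk.

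Promoters of the called sterol genes are shown because the members moved together and because the CCAAT box is a textbook partner site of SREBP-driven promoters. RefSeq windows of 300 bases around the gene start (GRCm38.p6) matched 13 of the 16 measured genes, Nsdhl and Cyp51 among the 4 called. Nsdhl lies on the plus strand at chrX:72918271-72918570 and Cyp51 on the minus strand at chr5:4104648-4104947, both written 5′ to 3′ in the direction of the gene, with each CCAAT (or its reverse complement ATTGG) in capitals.
Nsdhl: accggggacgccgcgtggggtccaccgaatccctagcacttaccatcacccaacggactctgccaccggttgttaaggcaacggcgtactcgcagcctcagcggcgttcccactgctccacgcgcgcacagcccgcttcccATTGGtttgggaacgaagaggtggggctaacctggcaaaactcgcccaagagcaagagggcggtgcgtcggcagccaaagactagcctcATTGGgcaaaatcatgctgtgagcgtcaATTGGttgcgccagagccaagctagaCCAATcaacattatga
Cyp51: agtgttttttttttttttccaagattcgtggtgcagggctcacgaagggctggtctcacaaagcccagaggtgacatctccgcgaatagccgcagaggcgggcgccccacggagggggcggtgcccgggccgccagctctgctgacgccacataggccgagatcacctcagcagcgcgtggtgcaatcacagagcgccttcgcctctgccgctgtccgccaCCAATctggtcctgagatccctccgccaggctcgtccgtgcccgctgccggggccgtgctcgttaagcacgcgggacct
Nsdhl holds 4 such boxes, of which 2 lie before the gene start, and Cyp51 holds 1, 29 bases before it. The 13 matched genes had 16 windows, since some have several starts. CCAAT, searched on both strands, was found in 13 of the 16 windows, at least 1 for every gene, and in 37.4% of 32851 promoters of the same length. The GC box GGGCGG was found in 13 of 16, against 35.7% of all promoters. The sterol element TCACNCCAC, with N any base, was in 0 of 16 and in 1.24% of all promoters, which says only that these letters are not in these windows. None of the 3 motifs contains another.

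Among the rises, genes of secreted and cell-surface proteins included Slpi, Prl2c2, Fst, Flrt3 and Il13ra2. Slpi encodes a secreted inhibitor of leukocyte proteases such as neutrophil elastase, made by epithelia and myeloid cells. It was 7.41, 7.44 and 7.60 in PBS, 8.90, 9.13 and 9.15 in responders, and 8.25, 9.48 and 8.02 in non-responders. The highest value was in non-responder 2, an array with skin keratins, but every DX array exceeded every PBS array. The rise was 1.34 ± 0.24 (limma adjusted p = 0.0188), and 1.09 (adjusted p = 0.0314) without responder 3 and non-responder 2. That comparison kept responder 2, where Krt14 was at 9.08.

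Prl2c2, proliferin, is a mouse placental hormone of the prolactin family that growth-stimulated mouse fibroblasts also secrete. Its PBS values were 6.68, 6.41 and 6.77, its responder values 8.22, 8.44 and 7.84, and its non-responder values 7.32, 7.88 and 7.81. No DX array overlapped PBS, though the outcomes overlapped with each other, and Prl2c2 rose by 1.30 ± 0.22 (limma adjusted p = 0.0130). A second Prl2c2 probe rose by 1.09 (adjusted p = 0.0393 over all probes). Prl2c3, a close copy whose probe may share transcripts with Prl2c2, was at 0.99 without passing (adjusted p = 0.0939), with all DX arrays above PBS, so which copy was measured is uncertain.

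Fst, Flrt3, Il13ra2 and B3gnt5 were detected on no PBS array, and their change is given as a bound against the lowest detected signal. Fst encodes follistatin, the secreted antagonist of activin. It was detected on all 6 DX arrays, at 5.81 to 6.93 with a median of 6.39, and its measured means were 6.39 in DX and 5.08 in PBS. Fst was at least 2.04-fold higher after DX (limma adjusted p = 0.0292). Flrt3, a membrane protein of cell adhesion and FGF signalling, had means of 6.18 and 4.90 and was at least 1.77-fold higher (adjusted p = 0.0125). Il13ra2, a high-affinity receptor that captures the type 2 cytokine IL-13, had means of 5.95 and 4.63 and was at least 1.50-fold higher (adjusted p = 0.0422). B3gnt5, a glycosyltransferase of lacto-series glycolipids, was detected on 5 of 6 DX arrays, with means of 5.88 and 4.70 and a bound of at least 1.43-fold (adjusted p = 0.0293). B3gnt5 falls outside the naming rule, which asked for detection on all 6, and was named after its values were seen. The size of these dim differences depended on the background step. On the log2 scale Flrt3 was at 1.29 with it and at 0.43 without it, Fst at 1.31 and 0.47, Il13ra2 at 1.33 and 0.44, and B3gnt5 at 1.18 and 0.37. Without it the differences were smaller than the bounds above, which hold for the corrected signals alone, and Flrt3 was still called (adjusted p = 0.0445) while Fst (0.0713), Il13ra2 (0.0913) and B3gnt5 (0.0713) were not.

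The other called rises with a symbol were Sntb2, Tmem164, Traf1, Rcan1, Nfat5, Smg1 and Hao1. Sntb2 encodes beta-2-syntrophin, an adaptor of the dystrophin complex at the cell membrane. It had the smallest p of all genes. PBS arrays read 7.78, 7.82 and 8.00, responders 8.69, 8.52 and 8.90, and non-responders 8.85, 9.11 and 8.95. All DX arrays were higher, and the difference was 0.97 ± 0.13 (limma adjusted p = 0.00440). Both other kept Sntb2 probes disagreed, at 0.04 and -0.16, so the rise belongs to 1 of 3 probes.

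Tmem164, a membrane protein, read 7.16, 6.98 and 7.29 in PBS, 8.08, 7.81 and 7.96 in responders and 8.10, 8.11 and 8.05 in non-responders. No DX array overlapped PBS, and the difference was 0.88 ± 0.12 (limma adjusted p = 0.00440). Its other kept probe was detected on 1 day 7 array and gave 0.25. Sntb2 and Tmem164 were the steadiest calls, passing in 25 of 27 alternatives each. The exceptions were the 2 alternatives that left out PBS 2. Of 27 alternatives, Prl2c2 passed in 23, Nsdhl in 22, Cyp51 in 19, Slpi in 18, Fdps in 17 and Traf1 in 16. Smg1 and Rcan1 passed in 11 of 27, Sqle in 9 and Nfat5 in 7. Of 26 alternatives, Flrt3 passed in 19, Fst in 12, Il13ra2 in 10, and Hao1 and B3gnt5 in 9 each.

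Traf1, an adaptor of TNF receptor and NF-kB signalling, was 7.68 to 7.84 in PBS and 8.04 to 8.63 in DX. Responders (8.45 to 8.63) sat above non-responders (8.04 to 8.29), and both above PBS. Traf1 rose by 0.60 ± 0.11 (limma adjusted p = 0.0193), while a second probe was at 0.13. Rcan1, which binds and inhibits the phosphatase calcineurin, was 9.93, 9.91 and 10.48 in PBS and ran from 10.34 to 11.27 in DX. PBS 3 overlapped with non-responder 3, and no other called gene had an overlap. The difference was 0.79 ± 0.16 (limma adjusted p = 0.0398), with 0.29 at the second probe.

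Nfat5, a transcription factor that cells use under osmotic stress, was 11.16 to 11.39 in PBS and 11.55 to 12.02 in DX, a rise of 0.44 ± 0.09 (limma adjusted p = 0.0427). Here non-responders (11.71 to 12.02) were above responders (11.55 to 11.61). Its other probes gave 0.20 and 0.42. Smg1, a kinase of nonsense-mediated mRNA decay, was 10.67 to 10.89 in PBS and 11.17 to 11.59 in DX, a rise of 0.64 ± 0.13 (adjusted p = 0.0422). Hao1, the peroxisomal glycolate oxidase known from liver, was 5.36 to 5.97 in PBS, where 2 of 3 arrays detected it, and 6.31 to 6.69 in DX. Hao1 rose by 0.79 ± 0.16 (limma adjusted p = 0.0383), and its second probe gave 0.73 (adjusted p = 0.0812 over all probes).

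The 20 called features without a symbol included the largest falls. Probe ILMN_2450735 was 8.89, 9.32 and 9.63 in PBS and 5.99 to 6.97 in DX, a difference of -2.95 ± 0.47 (limma adjusted p = 0.0101). ILMN_1247996 was 8.27, 9.00 and 8.55 in PBS and 5.39 to 6.79 in DX, a difference of -2.40 ± 0.37 (adjusted p = 0.00948). Both varied widely elsewhere: day 2 PBS tumours ran from 5.07 to 7.52 and from 5.41 to 6.96, and day 10 responders from 6.77 to 9.00 and from 6.71 to 8.53. Of the rises, ILMN_1224964 differed by 1.31 ± 0.19 and ILMN_2484278 by 1.02 ± 0.15 (adjusted p = 0.00440 for both).

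Reading every kept probe by itself, in place of 1 a gene, gave 55 called probes of 17674, 34 of them with a symbol. They covered 32 symbols, of which 15 had not been called with 1 probe a gene. Ccnt2, 1 of the 15, passed here at its brightest probe (limma adjusted p = 0.0482 over all probes). The genes named from these 15 were chosen after their values were seen. For 12 of the 15 all kept probes had the same sign, and for Ghr, Ltbp3 and Tpm4 they did not. Asns, asparagine synthetase, was at -1.21 at its dimmest probe (adjusted p = 0.00656) and at -0.40 and -0.37 at its 2 brighter probes. Fcrls, an Fc receptor-like gene of mouse macrophages and microglia, was at -1.67, -1.87 and -1.17 at its 3 probes, of which the second passed (adjusted p = 0.0444). Mtmr14, Actb and Eprs also had a called probe that fell, at -1.09, -1.03 and -0.97 (limma adjusted p = 0.0116, 0.0489 and 0.0386). The Mtmr14 probe was detected on 3 day 7 arrays. Its DX values, 4.51 to 5.00, lay below the lowest detected signal, so the size of its fall is uncertain. At its brightest probe Eprs was at -0.57 (limma adjusted p = 0.166). Besides Mtmr14, Actb, Eprs, Asns and Fcrls, the symbols of the 15 rose at their called probe. Fgf10, a mesenchymal growth factor, was at 1.17 and 1.42 (adjusted p = 0.0956 and 0.0369). Serping1, the C1 inhibitor of complement, was at 0.84 and 0.97 (adjusted p = 0.0573 and 0.0393). Rarres2, which encodes the chemoattractant chemerin, was at 1.28 and 1.78 (adjusted p = 0.119 and 0.0207) and at 0.07 at a dimmer probe.

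The outcomes were also compared with each other. Between responders and non-responders 0 of 12451 genes were called by limma (708 at an unadjusted p under 0.05, smallest adjusted p 0.379). With the day 7 arrays fitted alone as 3 groups, 1 gene was called. Differences of each outcome from the same 3 PBS arrays are set side by side here, since the genes were called on the mean of both and a shared sign follows from that choice. Nsdhl was at -0.95 in responders and -1.02 in non-responders, and the difference between outcomes was 0.07 with a 95% interval from -0.33 to 0.47. Tmem164 was at 0.81 and 0.94, with an interval of the difference from -0.44 to 0.16. For Flrt3 the outcomes differed by -0.11, with an interval from -0.62 to 0.41.

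For 6 of the 37 the interval between outcomes, before any adjustment, did not include 0, against 708 of all 12451 genes. Of those with symbols, Traf1 was higher in responders by 0.34 (0.08 to 0.60), Fst by 0.64 (0.05 to 1.24) and Rcan1 by 0.41 (0.03 to 0.79). The difference for Nfat5 was -0.32 (-0.54 to -0.09), with responders lower. None passed the adjusted test between outcomes (adjusted p = 0.792, 0.812, 0.815 and 0.734).

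**Figure D3:**
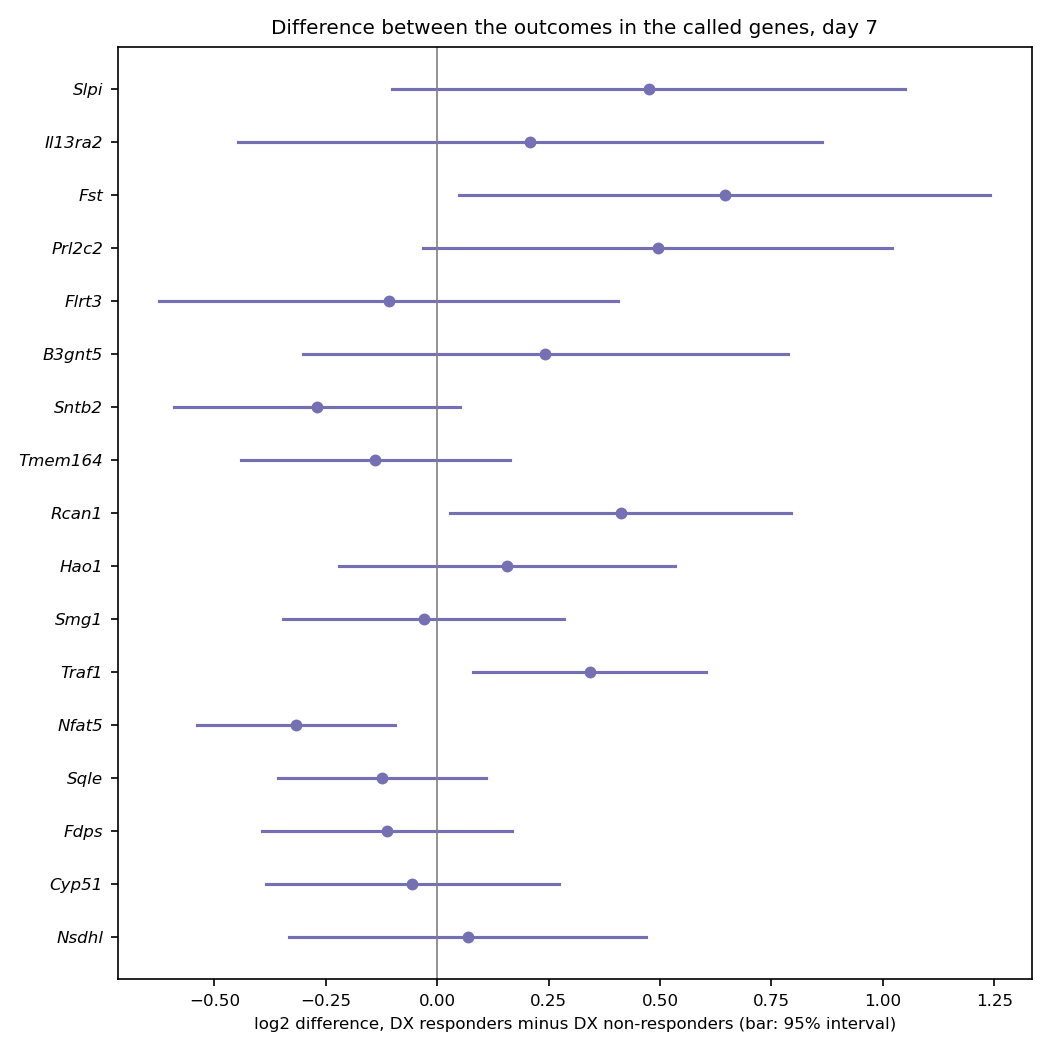
Each row is a called gene with a symbol, in the order of the plot of called genes, with the log2 difference between DX responders and DX non-responders on the x axis as a point and its unadjusted 95% interval as a bar (3 against 3 arrays). Bars cross 0 for 13 genes and lie to the right for Traf1, Fst and Rcan1 and to the left for Nfat5.

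Levels on the other days place the day 7 PBS arrays. Comparisons in this paragraph share arrays, so values are set side by side. Tmem164 was 8.29 to 8.67 in day 2 PBS, 8.00 and 8.07 in day 2 DX, 6.98 to 7.29 in day 7 PBS and 7.85 to 8.23 in day 10 responders, so the low group was day 7 PBS. In PBS tumours 78 genes (0.626%) were called between day 2 and day 7. Over that interval Tmem164 fell by 1.31 (limma adjusted p = 0.000469), Prl2c2 by 1.40 (adjusted p = 0.0138) and Sntb2 by 0.73 (adjusted p = 0.0351). The DX effect of day 7 minus that of day 2 was 1.29 for Tmem164 (adjusted p = 0.0130) and 1.17 for Sntb2 (adjusted p = 0.0267), and 1.65 for Prl2c2 without passing (adjusted p = 0.0736).

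Levels of Slpi, Rcan1 and Fst on the other days follow. Slpi was 8.36 to 8.67 in day 2 PBS, 9.17 and 9.89 in day 2 DX and 8.61 to 9.20 on day 10. Day 7 PBS, at 7.41 to 7.60, was its lowest group, as for Tmem164. The lowest day 7 DX array, at 8.02, was below every day 2 PBS array. Rcan1 was 10.11 to 10.42 in day 2 PBS, 10.54 and 11.12 in day 2 DX and 10.79 to 11.05 on day 10. For both, DX arrays were above the PBS arrays of their own day on average, by 0.99 and 0.57 on day 2, without passing (adjusted p = 0.262 and 0.431). Fst was at 5.04 to 5.50 in day 2 PBS and at 5.99 to 6.97 on day 10.

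On average the called sterol enzymes were highest in the day 7 PBS arrays. Nsdhl was 6.90 to 7.08 in day 2 PBS, 6.72 and 6.93 in day 2 DX, and 6.92 to 7.22 on day 10, all below the 7.53 to 7.95 of day 7 PBS. PBS day 7 minus PBS day 2 was 0.76 for Nsdhl (adjusted p = 0.0776), 0.45 for Cyp51 (0.195), 0.24 for Fdps (0.430) and 0.18 for Sqle (0.495), none of them called. Sqle differed between DX and PBS by -0.47 on day 2 (adjusted p = 0.145) as on day 7, and the difference of the 2 effects was 0.00 ± 0.16.

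**Figure D4:**
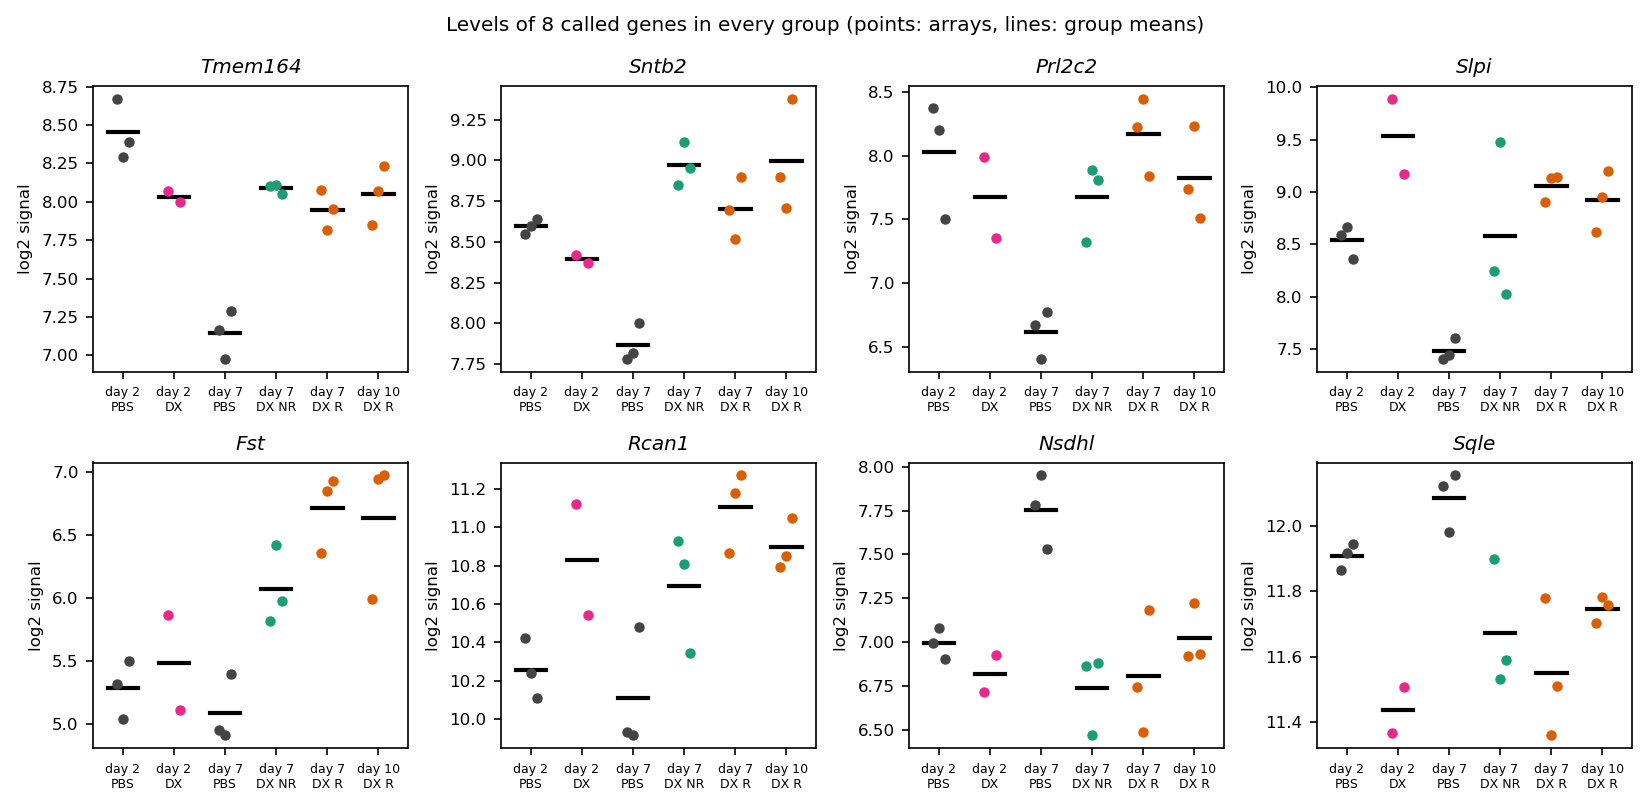
Panels show the log2 signal (y axis, own range in each panel) of 8 called genes in the 6 groups along the x axis, with points as arrays and lines as group means. Day 7 PBS is the lowest group for Tmem164, Sntb2, Prl2c2 and Slpi and the highest for Nsdhl and Sqle.

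Stress genes near the sterol list were lower in value and not called at their brightest probe. A dimmer probe of Asns, a member of the amino acid response list, was called lower, as given above. The amino acid response genes, driven by ATF4 when amino acids are short or the endoplasmic reticulum is stressed, had a median of -0.28 over 20 measured members, with 14 negative and 0 called. Chac1, a glutathione-degrading enzyme, was 11.19 to 11.54 in PBS and 9.68 to 11.08 in DX, without overlap, at -0.86 ± 0.19 (limma adjusted p = 0.0625). Trib3, a pseudokinase target of ATF4, was at -0.79 (adjusted p = 0.0901) and Atf4 at -0.30 (0.359). Sesn2, a sestrin, was detected on 3 PBS and 0 DX arrays (adjusted p = 0.155). All DX arrays were below PBS for 4 of the 20, against 2.39% of all genes. Among the 4 was Cth, which was detected on no day 7 array. The heat shock and ER chaperone list had a median of -0.18 over 24 genes, with 0 called, and Hspa5, the chaperone BiP, was at -0.74 (adjusted p = 0.0917).

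Lists of DNA damage and the cell cycle held few called genes. Of 22 measured p53 targets 0 were called, and the median was 0.11. Mdm2, the ubiquitin ligase that p53 induces against itself, was 9.28 to 9.52 in PBS and 9.57 to 9.99 in DX, without overlap, at 0.39 ± 0.10 (limma adjusted p = 0.103). Cdkn1a, which encodes the cycle inhibitor p21, was at 0.52 (adjusted p = 0.230). Mitosis genes had a median of -0.01 (21 genes, 0 called) and DNA replication genes one of -0.02 (31 genes, 0 called), with Top2a, the topoisomerase that DX poisons, at 10.32 to 11.12 in PBS and 10.10 to 11.03 in DX. The senescence-associated list had 1 called member of 21, Prl2c2, and a median of 0.32. That median was -0.03 without PBS 3, 0.05 under 75th percentile scaling and 0.07 without responder 3, so it had no settled direction. Activin and TGF-beta genes had 1 called member of 24, Fst, and a median of 0.04.

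Markers of infiltrating lymphocytes were higher in value and not called as a shared change. The 19 measured T and NK cell genes had a median of 0.51, and of 0.33 under 75th percentile scaling, with 0 called. The median was 0.74 in responders and 0.26 in non-responders, and 0.10 within chip 2 and 1.30 within chip 3. The mean log2 signal of the list was 6.30, 6.43 and 6.82 in PBS, 7.40, 7.36 and 7.20 in responders, and 6.69, 7.14 and 6.55 in non-responders. Responders were thus above all PBS arrays, and non-responders 1 and 3 were not. Satb1, a chromatin organiser of T cells, was 5.77 to 6.51 in PBS and 6.53 to 8.48 in DX, at 1.30 ± 0.30 (limma adjusted p = 0.0701). Klra7, an NK cell receptor of a family of close copies, was at 1.28 (adjusted p = 0.0619). Cytotoxic granule genes had a median of 0.70 over 9 genes, which was 0.45 without PBS 2 and 1.30 without PBS 3. The mean log2 signal of that list was 8.10 in PBS 3, within the DX range of 7.02 to 8.36. Single members included Nkg7 at 1.10 (adjusted p = 0.0917) and perforin, Prf1, at 0.70 (adjusted p = 0.101). Immune checkpoint genes had 9 positive values of 9 and a median of 0.48 (0.30 under 75th percentile scaling), with Cd274, which encodes PD-L1, at 0.77 (adjusted p = 0.109). The interferon gamma response list, with 19 genes, was at 0.33, and at 0.53 without PBS 3. None of these lists had a called member, and their medians within chip 2 lay between 0.03 and 0.15.

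Myeloid genes went in both directions. Monocyte and macrophage genes had a median of -0.16 over 28 genes, with 0 called. Csf1r, the receptor of macrophage growth factor, was at -0.68 and C1qa, a complement subunit made by macrophages, at -0.70 (adjusted p = 0.0701 for both), and for both all DX arrays were below PBS. Ly6c1, of a gene pair of near-identical copies that marks inflammatory monocytes and endothelium, was at 0.84 (adjusted p = 0.0917). Neutrophil genes had a median of 0.41 over 11, and of 0.10 under 75th percentile scaling. S100a8, a calprotectin subunit, was at 1.92 (adjusted p = 0.149), Mmp9, a gelatinase, at -0.54 (adjusted p = 0.109) and Trem1, an activating receptor, at -0.65 (adjusted p = 0.258). The 11 MHC class II genes were at a median of -0.25, with -0.59 within chip 2 and 0.26 within chip 3.

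In the CCR2 axis no gene was called. Ccr2, the receptor that draws monocytes out of marrow, was detected on 0 of the 9 arrays, and no difference is given. Ccl2, its main ligand, was 9.10 to 9.34 in PBS and 8.64 to 9.99 in DX, at 0.11. Ccl7 was at 0.23 and Ccl12, a ligand found in mice, at -0.47 ± 0.19 (limma adjusted p = 0.259), 9.76 to 10.22 in PBS against 9.08 to 10.23 in DX. Of 24 chemokines 0 were called. Ccl3, an inflammatory chemokine, was detected on all 6 DX and no PBS array, with a mean of 6.13 against 5.12 (adjusted p = 0.0558).

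The other lists held 0 called genes each at the brightest probe. A dimmer Eprs probe, of the tRNA charging list, was called lower, as given above. Among metabolic lists the median was -0.21 for fatty acid synthesis (11 genes), -0.08 for the mitochondrial respiratory chain (28), -0.04 for hypoxia and glycolysis (23), -0.09 for tRNA charging (18) and -0.07 for NRF2 antioxidant genes (18). Idh1, cytosolic isocitrate dehydrogenase, which supplies NADPH, was the member nearest to a call, at -0.60 (adjusted p = 0.0625) with all DX arrays below PBS. Type I interferon response genes were at 0.10 (27 genes), and Oas2, an antiviral oligoadenylate synthase, was at 1.05 (adjusted p = 0.0558) with all DX arrays above PBS. MHC class I genes were at 0.10 (20) and dendritic cell genes at 0.16 (14). Collagens were at -0.35 in responders and 0.05 in non-responders (17 genes), while matrix glycoproteins were at 0.08 (25) and metalloproteinases at 0.25 (17). The endothelial list was at 0.00 (20), glucocorticoid-induced genes at 0.04 (15), core histones at -0.10 (2) and B cells at -0.17 (2). The B cell value rests on signals near background, since Fcrla was detected on no day 7 array and Blnk on 2 PBS arrays alone. Mast cell and basophil genes were at 0.68 over 4 genes, with Kit, the stem cell factor receptor, at 1.00 (adjusted p = 0.0744) and all DX arrays above PBS.

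Some lists with large medians rested on a few arrays or genes. The skeletal muscle median was 1.07 over 25 genes, 2.13 in responders and 0.04 in non-responders, and 0.23 without responder 3. Adipocyte genes were at 0.65 (4 genes), and at 0.28 without responder 3 and non-responder 2. Skin epithelium genes had a median of 0.61, and 0.15 without responder 3 and non-responder 2. Erythroid cells were represented by 3 globin genes at 1.18, with Hbb-bs, a beta globin, at 8.87 to 9.33 in PBS and 9.25 to 11.45 in DX (adjusted p = 0.152). The part of blood held in the samples was not tested.

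**Figure D5:**
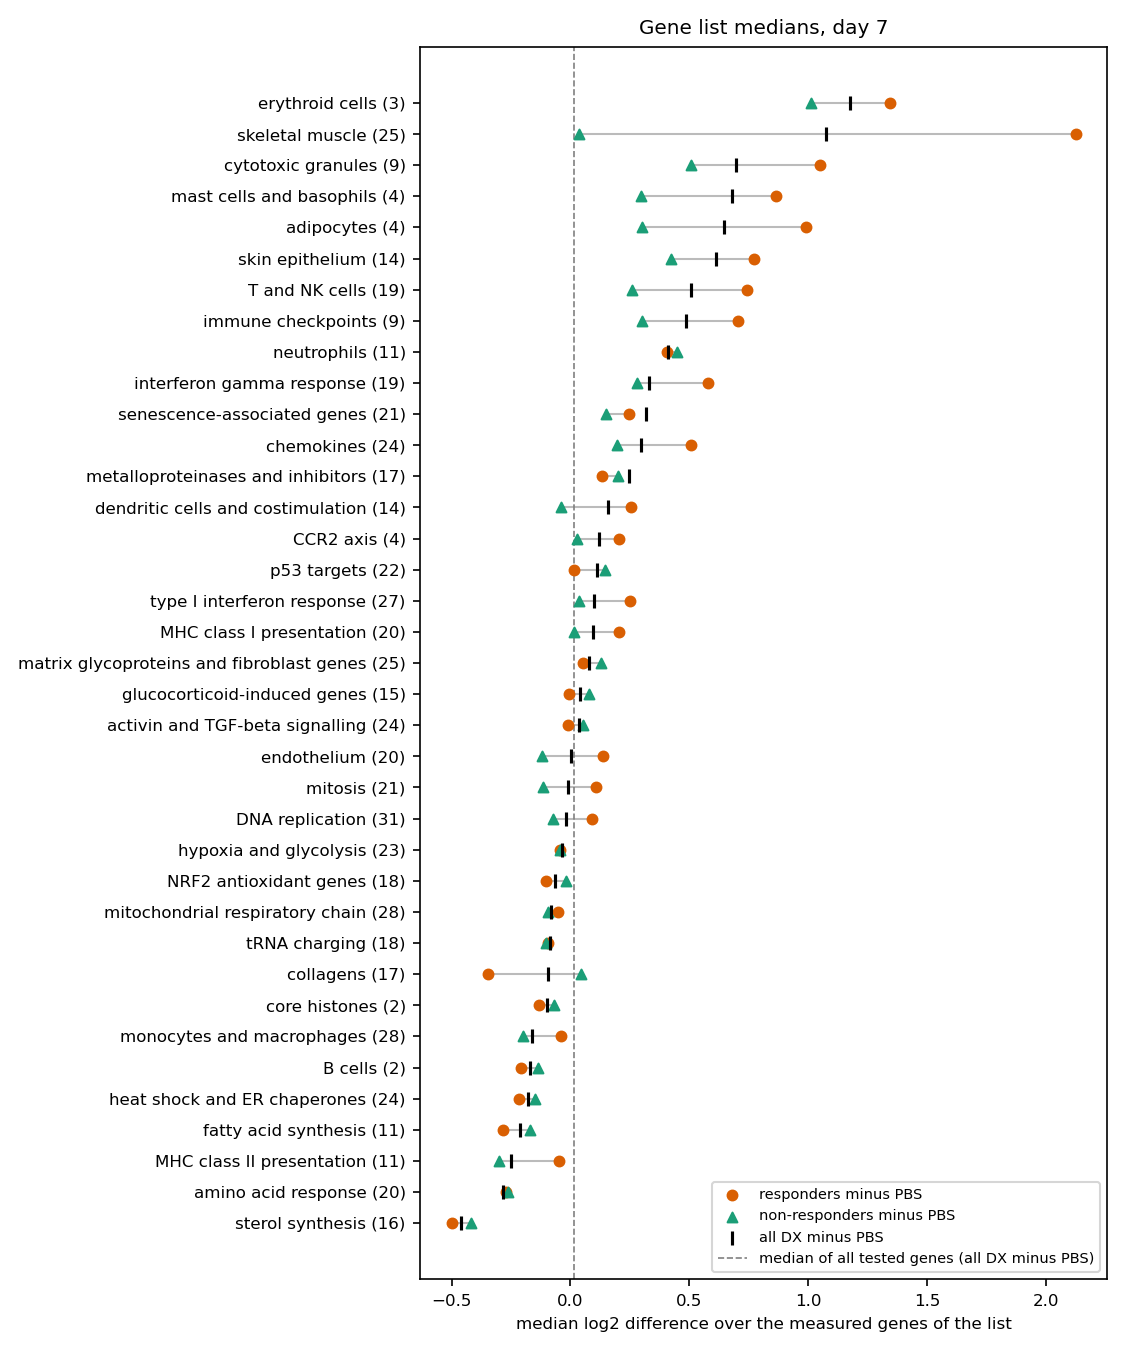
Each row is a gene list with its number of measured genes in brackets, and the x axis is the median log2 difference from the day 7 PBS arrays for responders (circles), non-responders (triangles) and all DX arrays (bars). The dashed line marks the median of all tested genes, 0.02. Sterol synthesis is lowest with both outcomes together at -0.50 and -0.42, while skeletal muscle spreads from 0.04 to 2.13.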

How the data were processed

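Total RNA of whole tumours was hybridised to Illumina mouse BeadChips, 1 array a sample, in 6 groups named by the sample titles. The authors deposited, per the file headers, a signal intensity and a detection p-value per probe and array, before normalization, and a table of processed intensity values, which served as an alternative. Each of its 17 columns was most like its own array, and its column medians were 119.6 to 119.7. The submitters' processing notes name GenomeStudio 2011.1, and its settings are not given in the sources used here. How the detection p-value was computed is also not given.

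Intensities were background-corrected, quantile-normalised and logged by neqc (limma 3.58.1, R 4.3.3), which took the negative controls' mean and spread from the detection p-values. Its offset was 16. Of 45281 probes 34885 had 1 symbol in the platform annotation, 18 several and 10378 none. Probes with a detection p under 0.01 on at least 2 arrays were kept (17674). Groups were fitted as 6 means over 17 arrays with a mean-variance trend (11 residual and 6.95 prior degrees of freedom). All DX was the mean of both outcomes. Fits were also run on simulated data with added changes and independent noise around the mean of each gene. Those data held no chip, tissue or single-array effects, so they cannot speak to the dependence on such effects. The number of arrays limits the precision.

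Genes named were the 12 called genes with a symbol that had the largest rise and fall shared by both outcomes and were detected on every array of the brighter side, up to 5 called members of a list with at least 2, the CCR2 axis, and genes also called between outcomes (0). Other list members are examples. Members and the 37 lists were chosen with earlier results of these data known. Replicate numbers did not pair arrays: deviations of same-numbered day 7 arrays correlated at -0.22 to 0.23, and 2 of 9 pairs were over 0.1. Alternatives covered background, scaling, filters, blocks, weights and each array left out.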

Additional observations from a re-analysis of the deposited data

Results flagged for a closer look

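Of the 62 sets of 6 DX values examined, 7 had 1 array far from the other 5, where chance gives about 1 in 20. In responder 1, Ccl12 was at 10.23 with the nearest DX array at 9.51, the mean log2 signal of the CCR2 axis was 9.17 against 8.61, and that of monocyte and macrophage genes 8.73 against 8.49. Non-responder 3 had the lowest cytotoxic granule mean, 7.02 against 7.97, and the highest heat shock and ER chaperone mean, 9.62 against 9.38. Responder 3 had the highest skeletal muscle mean, 10.20 against 6.23, and the highest adipocyte mean, 7.30 against 5.94. No called gene with a symbol was among them.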

How the results depend on the processing

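Against 37 called genes there were 20 without background correction and 20 in the deposited processed table, 21 with another normexp correction and 21 with 75th percentile scaling, 6 with BeadChip as a fixed block (34 as a random one), and 89 with array weights. Leaving out 1 array gave 0 to 105, with 0 without PBS 2, 8 without PBS 1, 18 without non-responder 2 and 105 without non-responder 1. Chosen after seeing the data, leaving out responder 3 and non-responder 2 gave 12, and leaving out PBS 2 and 3 gave 0. Between outcomes the count was 0, and 1 with day 7 fitted alone. As a check of pairing, the replicate block over the day 7 arrays gave 13 calls (10 shared with the 37) and 0 between outcomes. Since no pairing by number was seen, its counts are given only here. Under the fixed block the median size of the called genes went from 0.91 to 0.84 with a median SE of 0.17 in both. Of 717 recomputed values of named genes 495 stayed on their side of the threshold, 203 no longer passed and 19 moved. No named gene that was called changed sign, which for most of these genes follows from DX and PBS arrays not overlapping. The counts include Ccr2, Ccl2, Ccl7 and Ccl12, which passed in no alternative and had values of both signs. Ccl7, for example, ran from -0.10 to 0.96, and Ccl2 from -0.07 to 0.65. Of 1072 list medians 83 moved by more than the spread. Dim probes near background and 3 PBS arrays limit what can be called, and the cause of the changed counts was not tested.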
